A study of Mus musculus with 6 samples.

Results

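The genes described here encode the enzymes and carriers of sugar metabolism in mouse kidney, 51 listed symbols of the 24434 in the count table. They were chosen by symbol from a list of glycolysis, gluconeogenesis, fructose and polyol metabolism, the pentose phosphate pathway and the control of pyruvate dehydrogenase. All 51 were found, and all 51 were among the 16373 genes with enough counts to be tested. Polyadenylated RNA of whole kidney was sequenced in 6 libraries, 3 from db/db mice and 3 from db/m mice, all on normal chow. The db allele disrupts the leptin receptor. Animals that carry it on both chromosomes grow obese and diabetic, and the design text names them as the diabetic model, with db/m mice as the controls. The labels used here name neither strain, age nor sex. Since no label ties a library to its own mouse, the p-values below cover only library-to-library spread, which may be technical.

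Glycolysis splits glucose into pyruvate, and the gluconeogenic enzymes run the opposite way past its irreversible steps. In the kidney these directions lie in different cells: the proximal tubule makes glucose from lactate and other precursors and burns little of it, whereas the distal nephron and the medulla depend on glycolysis. Pyruvate enters mitochondria through a carrier of MPC1 and MPC2, where pyruvate dehydrogenase turns it into acetyl-CoA and pyruvate carboxylase into oxaloacetate. Kinases of the PDK family switch pyruvate dehydrogenase off, and phosphatases switch it on again.

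Across the 51 genes, 11 rose and 10 fell in db/db (adjusted p below 0.05, edgeR quasi-likelihood test with Benjamini-Hochberg adjustment over all genes tested). Of all genes tested, 13.1% rose and 10.8% fell. The members' median log2 fold change (db/db minus db/m, here and below) was 0.06, beside -0.06 over all genes tested. Of the 51, 2 rose at least 2-fold (Ldhd and Pdk3), beside 3.71% of all genes tested, and 3 fell at least 2-fold (Aldoc, Eno2 and Pdk1), beside 4.1%. Genes called at any fold, in either direction, were 21 of 51, beside 24% of all genes tested. The db/db and db/m libraries did not overlap for 27 of the 51, beside 44.6% of all genes tested (22.4% higher and 22.2% lower in db/db). The plot of fold changes by sub-pathway shows each gene.

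**Figure D1:**
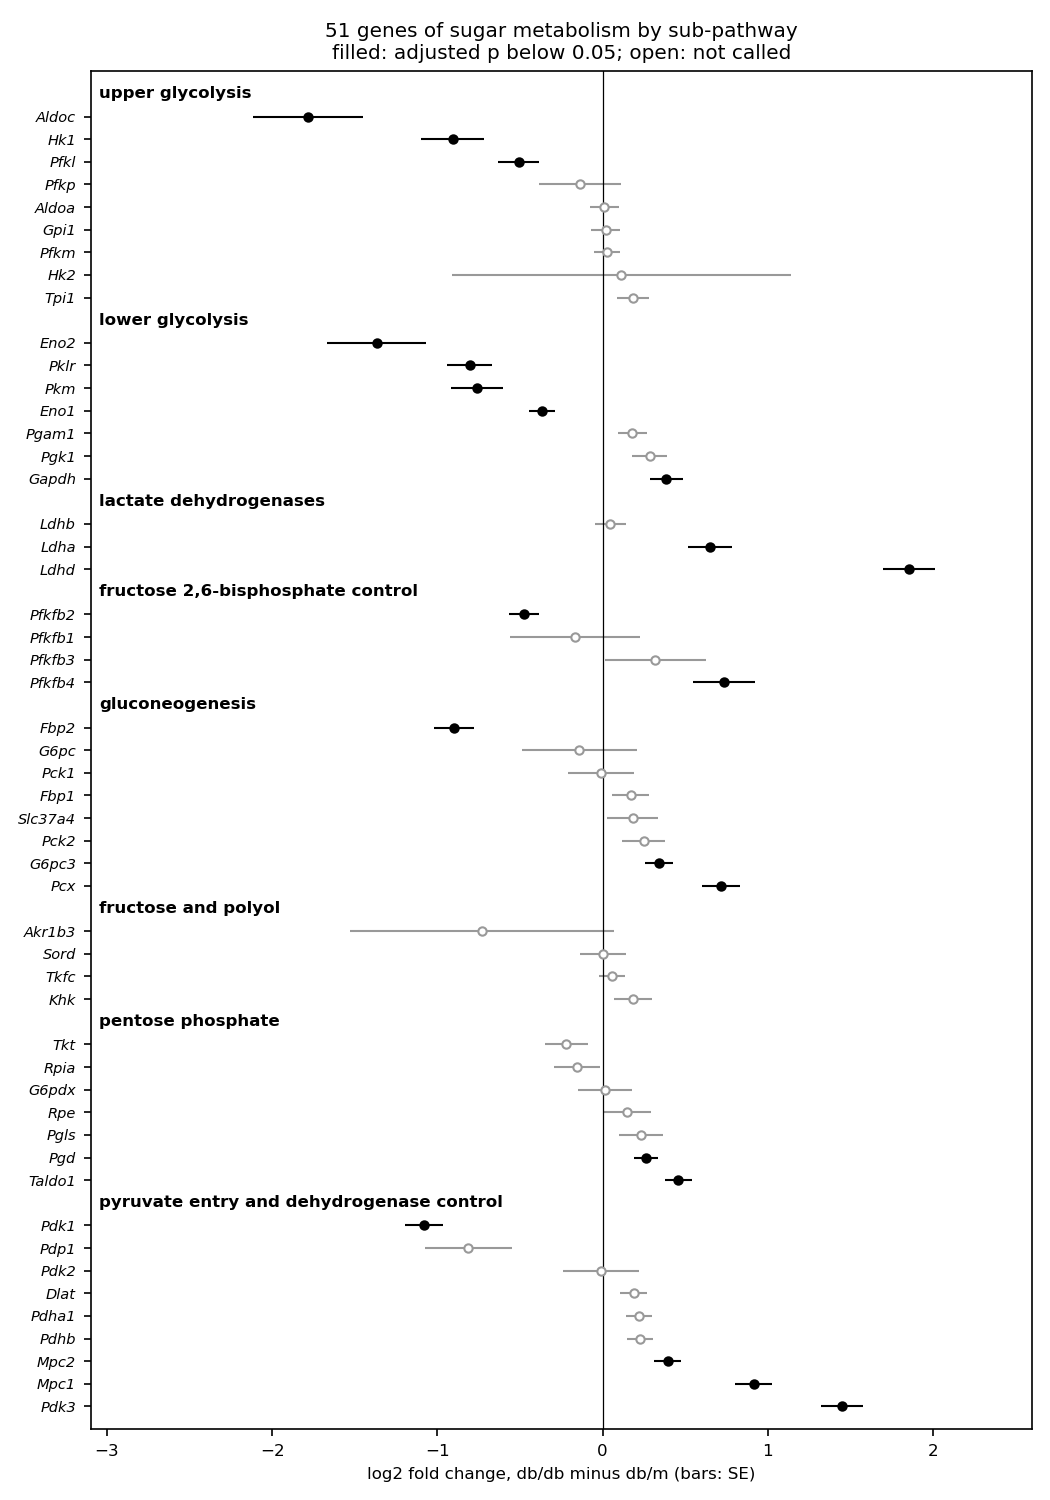
Log2 fold change of each of the 51 genes (x axis, db/db minus db/m, bars are SE, 3 libraries a group), grouped by sub-pathway; filled points had an adjusted p below 0.05. The values run from -1.78 for Aldoc to 1.86 for Ldhd, and 21 of the 51 points are filled.

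The counts depended on libraries and scaling. All 21 called genes kept their direction in every alternative fit that was run, and 11 of the 21 kept their call whichever single library was left out. The rises among members numbered 7 on leaving out db/db replicate 1 and 6 on leaving out replicate 3 of that group. Over all genes, rises went from 2151 to 1470 and 1374 in these fits. The falls among members numbered 6 on leaving out replicate 2 or replicate 3 of db/db, while those over all genes went from 1774 to 994 and 891. Scaling by total counts alone moved the median log2 fold change of all genes from -0.06 to -0.32. It gave 4 rises and 14 falls among members, beside 1072 rises and 4883 falls over all genes.

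The libraries held 25937756 to 35931140 counts. Levels are given in CPM, the counts scaled by the TMM-adjusted library size, and a count of 0 allows up to 0.0835 to 0.116 CPM. Lepr, which encodes the leptin receptor, was at 2.94, 2.48 and 3.61 CPM in db/m replicates 1 to 3 and 5.66, 2.54 and 5.15 CPM in db/db replicates 1 to 3. A gene-level count need not show the db allele, so this does not check the genotype. Summed kidney segment markers were high in every library, with 8077 to 12479 CPM for 8 markers of the S1 and S2 proximal tubule. Several marker lists differed between the groups. Summed over 7 genes that mark S3, the last stretch of the proximal tubule, the level was 3152 to 4238 CPM in db/db and 411 to 666 CPM in db/m. Of these 7, 6 were higher and 0 lower in db/db, unevenly, from Slc5a8 (log2 fold change 0.89) to Acsm3 (5.82). Slc5a1 was not called (-0.35, adjusted p = 0.185). The sum of 4 male-biased kidney genes was 40284 to 44167 CPM in db/db and 916 to 2571 CPM in db/m, with 4 of 4 higher in db/db. That of 3 female-biased kidney genes was 104 to 202 CPM in db/db and 684 to 921 CPM in db/m, with 3 of 3 lower in db/db. Since the labels give no sex, a difference in sex between the groups and the difference in genotype cannot be told apart in any value below. The part of these shifts in the results below was not tested. In whole tissue, fewer cells of a type and less RNA per cell cannot be told apart.

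The promoters of 6 members, picked by no fixed rule with their fold changes known, are shown first. Of these, Ldhd, Ldha, Pdk3 and Mpc1 rose and Pdk1 and Fbp2 fell. Aldoc and Eno2, which had the largest falls (-1.78 and -1.37), are not among them. Each line gives the 160 bases before the RefSeq start site (GRCm38.p6, the upstream start where a gene has more than 1), 5′ to 3′ on the gene's strand. Capitals mark ACGTG on either strand, the core of hypoxia response elements, which is also part of the E-box CACGTG bound by the carbohydrate response factor ChREBP with its partner MLX, by MYC and by USF factors.
Ldhd, chr8:111630337-111630496, minus strand: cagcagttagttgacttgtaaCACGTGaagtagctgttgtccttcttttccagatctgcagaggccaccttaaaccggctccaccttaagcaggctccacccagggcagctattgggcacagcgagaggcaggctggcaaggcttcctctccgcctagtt
Ldha, chr7:46845644-46845803, plus strand: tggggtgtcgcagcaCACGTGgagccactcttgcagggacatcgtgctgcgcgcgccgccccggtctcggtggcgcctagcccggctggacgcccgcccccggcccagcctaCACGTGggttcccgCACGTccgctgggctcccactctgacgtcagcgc
Pdk3, chrX:93832151-93832310, minus strand: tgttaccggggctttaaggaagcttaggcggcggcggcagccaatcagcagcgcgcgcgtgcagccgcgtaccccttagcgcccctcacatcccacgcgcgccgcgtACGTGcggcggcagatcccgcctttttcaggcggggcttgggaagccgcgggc
Mpc1, chr17:8283627-8283786, plus strand: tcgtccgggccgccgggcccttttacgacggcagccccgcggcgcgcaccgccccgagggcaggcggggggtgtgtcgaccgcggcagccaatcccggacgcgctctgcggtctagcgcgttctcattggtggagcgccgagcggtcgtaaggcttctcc
Pdk1, chr2:71873064-71873223, plus strand: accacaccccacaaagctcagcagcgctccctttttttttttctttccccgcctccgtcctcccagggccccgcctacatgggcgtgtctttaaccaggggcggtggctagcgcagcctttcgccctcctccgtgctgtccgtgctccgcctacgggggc
Fbp2, chr13:62858401-62858560, minus strand: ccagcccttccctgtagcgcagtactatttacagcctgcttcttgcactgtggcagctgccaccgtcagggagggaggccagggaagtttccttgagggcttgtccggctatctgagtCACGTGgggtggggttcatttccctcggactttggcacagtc
CACGTG stands once in the Ldhd and Fbp2 stretches and at 2 places in that of Ldha, so it is found before genes that rose and before a gene that fell.

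Searched in windows from 250 bases before to 50 after the start, on both strands, CACGTG was found for 10 of the 49 members that have a RefSeq window, beside 8.09% of 27025 genes. A gene counted if any of its windows matched. The 49 members had 74 windows and the 27025 genes 32851, so members had more windows per gene in which to match, for every motif here. By response these were 4 of 11 genes that rose (G6pc3, Ldha, Ldhd, Pcx), 2 of 10 that fell (Fbp2, Pfkfb2) and 4 of 28 that were not called (Khk, Pdk2, Pfkfb3, Pfkm). ACGTG, which every CACGTG also holds, was found for 21 of the 49, beside 21.8% of genes, with 6 among those that rose, 5 among those that fell and 10 among the rest. The cAMP response element TGACGTCA was found for Ldha alone, beside 2.03% of genes, and TGACGCAA, a composite of ATF4 and C/EBP sites, for 0 of the 49, beside 0.562% of genes. Such matches describe the letters and show no binding.

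The strongest rise was in Ldhd, which encodes the mitochondrial dehydrogenase of D-lactate. It stood at 330, 353 and 486 CPM in db/m replicates 1 to 3 and at 1396, 1401 and 1437 CPM in db/db replicates 1 to 3, or 1.86 on the log2 scale (SE 0.16, adjusted p = 0.000557). All db/db libraries were far above all db/m libraries, and the db/db values lay close together. Ldha, the lactate dehydrogenase subunit dominant in glycolytic tissue, was at 449, 421 and 583 CPM in db/m and 764, 785 and 728 CPM in db/db (log2 fold change 0.65, SE 0.13, adjusted p = 0.0141). Its groups did not overlap, with db/m replicate 3 nearest to db/db. With total counts only, the Ldha call ended (adjusted p = 0.0699). Ldhb, the subunit typical of oxidative tissue, was at 1545 to 1670 CPM in db/m and 1600 to 1794 CPM in db/db (log2 fold change 0.05, SE 0.09, adjusted p = 0.747). Per kilobase of transcript, Ldhb was the more abundant of both subunits, with 1237 against 267 CPM per kb for Ldha in db/m and 1277 against 418 in db/db. The ratio of Ldha to Ldhb counts within a library, which does not depend on scaling, was 0.277, 0.252 and 0.378 in db/m and 0.477, 0.438 and 0.455 in db/db.

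Both subunits of the mitochondrial pyruvate carrier rose. Mpc1 was at 205, 191 and 163 CPM in db/m and 344, 325 and 384 CPM in db/db (log2 fold change 0.91, SE 0.11, adjusted p = 0.00226). Mpc2 was at 369, 331 and 332 CPM in db/m and 450, 455 and 450 CPM in db/db, a smaller difference of 0.39 (SE 0.08, adjusted p = 0.0139). For both genes every db/db library was above every db/m library. The ratio of Mpc1 to Mpc2 was 0.490 to 0.578 in db/m and 0.714 to 0.854 in db/db. The Mpc2 call ended without replicate 2 of db/m (adjusted p = 0.0564), without replicate 3 of db/db (adjusted p = 0.0533) and with total counts only (adjusted p = 0.176).

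Pcx, pyruvate carboxylase, the first step from pyruvate towards glucose, rose with the carrier. It was at 520, 456 and 467 CPM in db/m and 689, 869 and 819 CPM in db/db (log2 fold change 0.72, SE 0.11, adjusted p = 0.0055). The groups were separate, and db/db replicate 1 was the lowest of its group.

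The kinases of pyruvate dehydrogenase went in opposite directions. Pdk3 was at 24.3, 32.6 and 30.7 CPM in db/m and 86.4, 75.0 and 78.1 CPM in db/db (log2 fold change 1.45, SE 0.13, adjusted p = 0.000645). Pdk1, a hypoxia-inducible member of the family, was at 65.4, 60.1 and 51.7 CPM in db/m and 28.5, 25.4 and 29.9 CPM in db/db (log2 fold change -1.08, SE 0.11, adjusted p = 0.00131). Neither gene's groups came near each other, and per kilobase Pdk3 went from 13.8 to 37.7 CPM per kb while Pdk1 went from 11.4 to 5.38. Pdk2 was the most abundant of the 4 kinases per kilobase, at 181 CPM per kb in db/m and 180 in db/db. Its levels, 333 to 553 CPM in db/m and 324 to 472 CPM in db/db, overlapped (log2 fold change -0.01, SE 0.23, adjusted p = 0.982). Pdk4, a fasting-induced kinase outside the 51 genes, was at 94.9, 93.0 and 260 CPM in db/m and 283, 219 and 308 CPM in db/db. With db/m replicate 3 inside the db/db range, Pdk4 did not pass the test (log2 fold change 0.86, SE 0.40, adjusted p = 0.156).

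The enzyme complex itself differed little. Pdha1 and Pdhb, the subunits of its first component, were at 361 to 394 and 153 to 159 CPM in db/m and 426 to 460 and 170 to 193 CPM in db/db. Dlat, the second component, was at 101 to 106 CPM in db/m and 108 to 125 CPM in db/db. Each of these genes was higher in every db/db library than in every db/m library, by 0.22, 0.23 and 0.19 on the log2 scale, without passing the test (SE 0.08 each, adjusted p = 0.0868, 0.0776 and 0.137). Pdp1, a phosphatase that reactivates the complex, was at 6.18, 6.43 and 9.24 CPM in db/m and 4.54, 2.97 and 4.93 CPM in db/db, separate but not called (log2 fold change -0.81, SE 0.26, adjusted p = 0.0604). DESeq2 called Pdp1 (adjusted p = 0.0291), as did total counts only (adjusted p = 0.0223), and DESeq2 called Pdha1 (adjusted p = 0.0494). The other phosphatase, Pdp2, which is not among the 51, fell by 0.89 (SE 0.18, adjusted p = 0.0132). Of the 9 genes of pyruvate entry and dehydrogenase control, 3 rose and 1 fell, with a median of 0.22. The share called here was 44.4%, beside 24% of all genes tested.

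**Figure D2:**
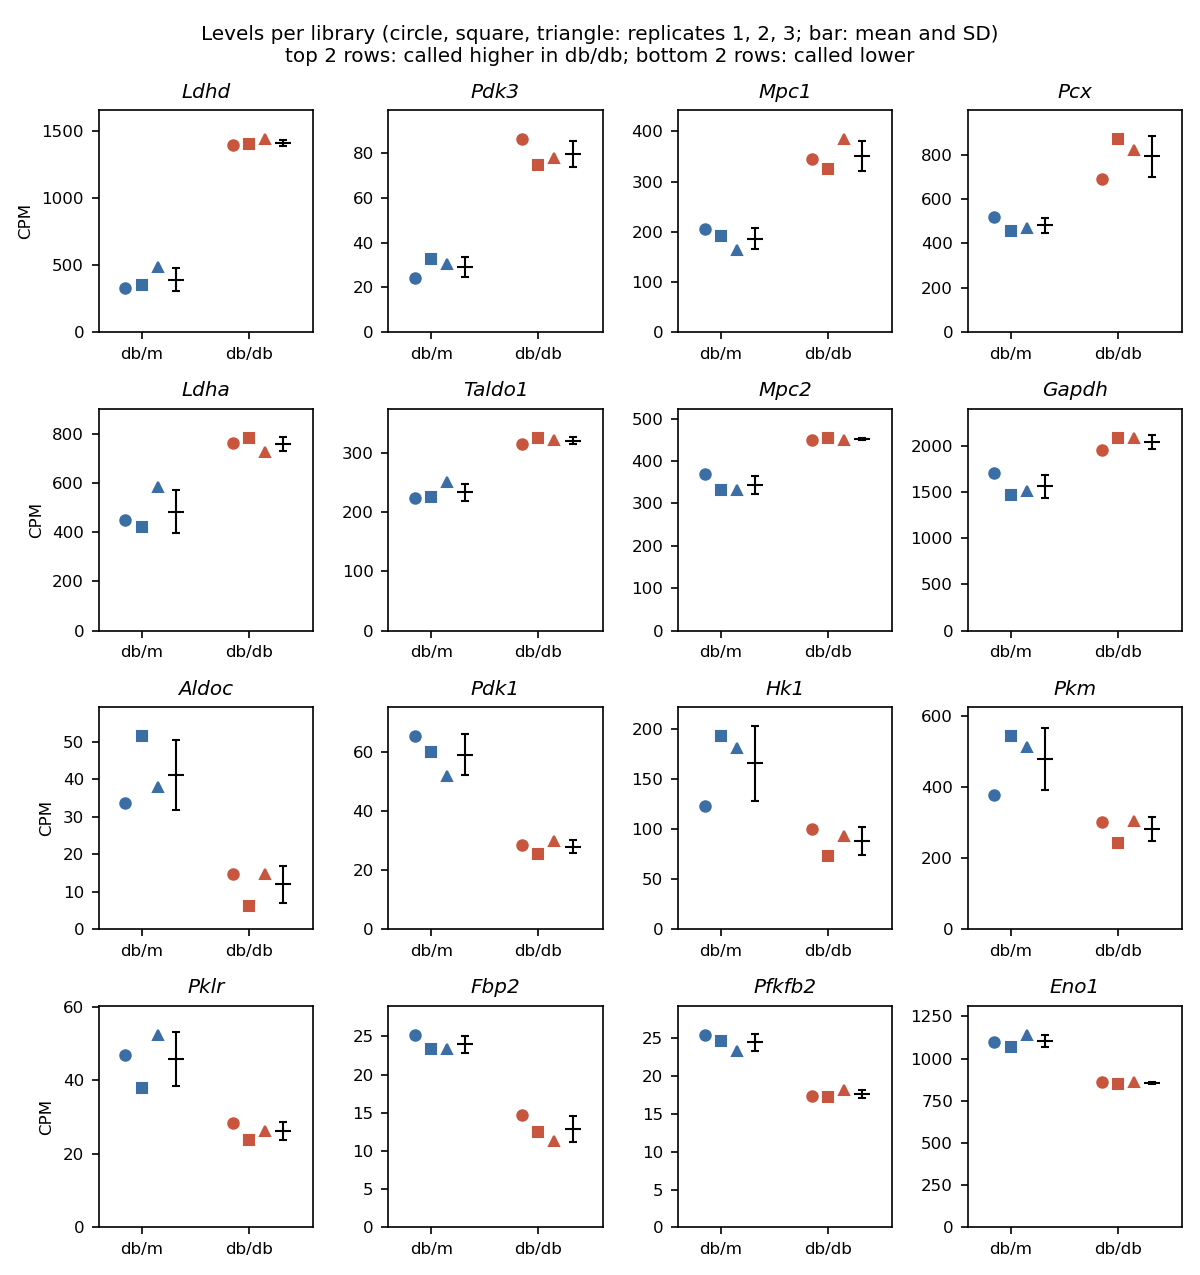
CPM of 16 called members in each library (y axes start at 0; symbols are replicates, black bars are group means with SD, n = 3 each). The upper 8 genes rose and the lower 8 fell, and no db/db point of these 16 lies within the range of its db/m points.

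Within upper glycolysis, from hexokinase to triose phosphate isomerase, 3 of 9 genes fell, beside 10.8% of all genes tested, and 0 rose. With DESeq2 0 rose as well, and 0 of the 9 were higher at an unadjusted p below 0.05. Hk1, the hexokinase that starts glycolysis in most cells, was at 123, 192 and 181 CPM in db/m and 99.6, 72.7 and 92.3 CPM in db/db (log2 fold change -0.91, SE 0.19, adjusted p = 0.015). Pfkl, the liver-type phosphofructokinase, was at 83.3, 106 and 114 CPM in db/m and 73.9, 66.7 and 72.7 CPM in db/db (log2 fold change -0.51, SE 0.12, adjusted p = 0.0258). In both genes db/m replicate 1 was the lowest of its group and db/db replicate 2 the lowest of all. Aldoc, an aldolase best known from brain, was at 33.7, 51.5 and 38.0 CPM in db/m and 14.8, 6.22 and 14.8 CPM in db/db (log2 fold change -1.78, SE 0.33, adjusted p = 0.0097). The Hk1 call ended on leaving out replicate 2 or replicate 3 of db/db (adjusted p = 0.053 and 0.05001). The Pfkl call ended on leaving out any library but db/m replicate 1 (adjusted p = 0.0593 to 0.0884).

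The most abundant genes of upper glycolysis did not pass the test. Aldoa, the muscle-type aldolase, was at 1042 to 1150 CPM in db/m and 1049 to 1123 CPM in db/db (log2 fold change 0.01, SE 0.09). Gpi1, glucose phosphate isomerase, differed by 0.02 on the log2 scale (SE 0.09) and Tpi1, triose phosphate isomerase, by 0.18 (SE 0.10, adjusted p = 0.198). With total counts only, Gpi1 was called lower, at -0.24 (adjusted p = 0.0451). Pfkm and Pfkp, the muscle and platelet phosphofructokinases, had 0.03 (SE 0.08) and -0.14 (SE 0.25). Pfkp was at 36.2, 57.4 and 55.5 CPM in db/m and 52.9, 30.8 and 52.1 CPM in db/db, so its lowest libraries were db/m replicate 1 and db/db replicate 2.

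Of the 7 genes of lower glycolysis, 4 fell and 1 rose (71.4% called, beside 24% of all genes tested), with a median of -0.37. Pkm, which encodes the M1 and M2 pyruvate kinases, was at 377, 543 and 513 CPM in db/m and 301, 242 and 303 CPM in db/db (log2 fold change -0.76, SE 0.16, adjusted p = 0.0147). Pklr, the liver and red cell pyruvate kinase, was at 46.9, 38.0 and 52.4 CPM in db/m and 28.5, 23.8 and 26.2 CPM in db/db (log2 fold change -0.80, SE 0.14, adjusted p = 0.00696). Both pyruvate kinase genes fell, and the ratio of Pkm to Pklr overlapped, at 8.05 to 14.3 in db/m and 10.2 to 11.5 in db/db. Eno1, the widespread enolase, was at 1096, 1071 and 1143 CPM in db/m and 861, 847 and 860 CPM in db/db (log2 fold change -0.37, SE 0.08, adjusted p = 0.0176). Eno2, the neuronal enolase, was at 1.96, 2.51 and 3.25 CPM in db/m and 0.923, 1.23 and 0.840 CPM in db/db (log2 fold change -1.37, SE 0.30, adjusted p = 0.0172). Its level is low, and Eno2 rests on 23 to 101 counts a library. The Pkm call ended without db/db replicate 2 (adjusted p = 0.053), the Eno1 call on leaving out any single db/db library (adjusted p = 0.0566 to 0.073), and the Eno2 call without replicate 2 of db/m or replicate 1 or 3 of db/db (adjusted p = 0.0508 to 0.0704). Eno1 has a near copy in the table, Eno1b, at 56.5 to 58.4 CPM in db/m and 42.3 to 51.9 CPM in db/db, and reads could be divided between them. Gapdh, Aldoa, Tpi1, Pgk1, Pgam1 and Ldha also have processed pseudogenes of near-identical sequence, so their counts are uncertain to the extent that reads were shared.

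Gapdh, which many assays use as a reference gene, was the one riser of lower glycolysis. It was at 1706, 1470 and 1513 CPM in db/m and 1953, 2087 and 2088 CPM in db/db (log2 fold change 0.39, SE 0.10, adjusted p = 0.0302). The groups did not overlap, but the call ended on leaving out any library but db/m replicate 1 (adjusted p = 0.0695 to 0.101). It also ended with upper quartile scaling (adjusted p = 0.0501) and with total counts only, where the log2 fold change was 0.13 (adjusted p = 0.274). Pgk1, phosphoglycerate kinase, was at 408, 408 and 500 CPM in db/m and 551, 535 and 518 CPM in db/db, separate but not called (log2 fold change 0.28, SE 0.11, adjusted p = 0.0889). Pgk1 was called by DESeq2 (adjusted p = 0.0477) and without db/m replicate 3 (adjusted p = 0.0251). Pgam1, phosphoglycerate mutase, had 0.18 (SE 0.09, adjusted p = 0.177).

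Of 10 collecting duct, distal and connecting tubule markers, 5 were lower in db/db and 1 was higher. The sum of 6 collecting duct markers was 888, 1316 and 990 CPM in db/m replicates 1 to 3 and 718, 554 and 699 CPM in db/db replicates 1 to 3, with 2 of the 6 lower (Aqp2 and Slc4a1) and 1 higher (Slc26a4) by the same test. Aqp2, the vasopressin-regulated water channel, was the most abundant marker of this sum, at 556, 897 and 710 CPM in db/m and 377, 243 and 394 CPM in db/db. Without Aqp2, a split made after the sums were seen, the other 5 markers summed to 333, 419 and 280 CPM in db/m and 341, 311 and 305 CPM in db/db, which overlapped. The sum of 4 distal convoluted and connecting tubule markers was 1267, 1904 and 1218 CPM in db/m and 845, 924 and 850 CPM in db/db, with 3 of 4 lower. None of these 10 markers was at 0 in any library. The sum of 5 markers of the thick ascending limb overlapped, at 2981 to 4070 CPM in db/m and 2519 to 4931 CPM in db/db, with 1 of 5 lower (Kcnj1). The sum of 8 S1 and S2 markers overlapped too, at 8077 to 11146 CPM in db/m and 9805 to 12479 CPM in db/db. Among these 8, 2 were lower (Gatm and Slc5a12) and 0 higher. Slc34a1 was the most abundant of them, at 4033 to 6422 CPM in db/m and 6195 to 8185 CPM in db/db. The part of these markers in the lower glycolytic genes was not tested.

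**Figure D3:**
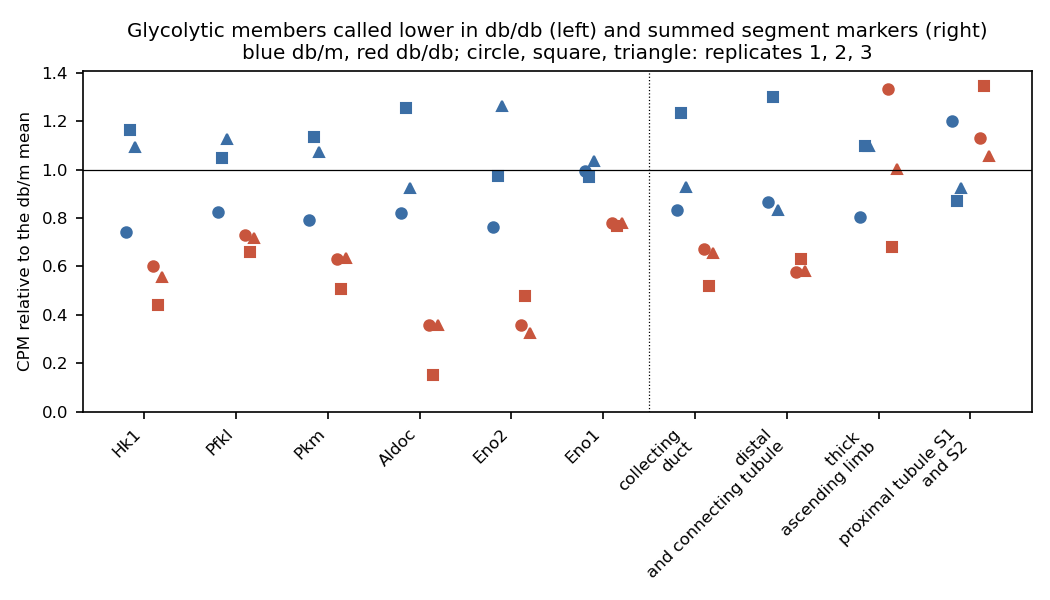
Level in each library relative to the db/m mean (y axis, from 0) for 6 glycolytic genes that fell and for the summed markers of 4 nephron segments. Collecting duct sums, in which Aqp2 is the most abundant marker, and distal tubule sums lie lower in db/db than in db/m, while thick limb and S1 and S2 sums overlap between the groups. By gene, 2 of the 8 S1 and S2 markers were lower in db/db.

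Gluconeogenic genes showed no common direction, with 2 of 8 higher, 1 lower and a median of 0.18. The share called was 37.5%, beside 24% of all genes tested. Pck1, phosphoenolpyruvate carboxykinase, which catalyses an early committed step of the pathway, was at 5686, 3424 and 5064 CPM in db/m and 4181, 4695 and 5205 CPM in db/db (log2 fold change -0.01, SE 0.20, adjusted p = 0.979). The groups overlapped throughout, and the lowest and the highest value were both in db/m. G6pc, the glucose-releasing phosphatase of liver and kidney, was at 895, 716 and 543 CPM in db/m and 328, 854 and 772 CPM in db/db (log2 fold change -0.14, SE 0.35, adjusted p = 0.791). Its db/db replicate 1 was below every other library, and the remaining db/db values lay within the db/m range. Fbp1, the fructose bisphosphatase of kidney and liver, had 0.17 (SE 0.11), the glucose 6-phosphate carrier Slc37a4 0.18 (SE 0.15) and the mitochondrial carboxykinase Pck2 0.25 (SE 0.13), none of them called (adjusted p = 0.296, 0.41 and 0.197).

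Besides Pcx, G6pc3, the widely expressed glucose 6-phosphatase, rose, at 49.2, 53.4 and 46.6 CPM in db/m and 63.9, 65.7 and 59.8 CPM in db/db (log2 fold change 0.34, SE 0.09, adjusted p = 0.0265). That call ended on leaving out any library but db/m replicate 2 (adjusted p = 0.0514 to 0.0766) and with total counts only (adjusted p = 0.453). Fbp2, the muscle-type fructose bisphosphatase, fell, at 25.3, 23.3 and 23.4 CPM in db/m and 14.7, 12.5 and 11.4 CPM in db/db (log2 fold change -0.90, SE 0.12, adjusted p = 0.0031). Fbp2 was separate between the groups, and per kilobase it was the minor form, with 17.7 CPM per kb in db/m against 708 for Fbp1.

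The bifunctional enzymes that set fructose 2,6-bisphosphate, the activator of phosphofructokinase and inhibitor of fructose bisphosphatase, differed by form. Pfkfb2, the heart-type form, fell, at 25.5, 24.7 and 23.3 CPM in db/m and 17.4, 17.2 and 18.2 CPM in db/db (log2 fold change -0.48, SE 0.09, adjusted p = 0.0102). Pfkfb4 rose, at 8.47, 10.5 and 8.34 CPM in db/m and 19.0, 12.8 and 13.7 CPM in db/db (log2 fold change 0.74, SE 0.19, adjusted p = 0.0289). Both genes were separate between the groups. The Pfkfb4 call ended without replicate 1 or 3 of either group (adjusted p = 0.0578 to 0.0733) and with total counts only (adjusted p = 0.0914). The inducible form Pfkfb3 was at 10.9 to 24.4 CPM in db/m and 17.8 to 29.7 CPM in db/db, and the liver form Pfkfb1 at 0.911 to 1.74 and 0.682 to 1.51 CPM, neither called (adjusted p = 0.472 and 0.782).

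None of the 4 genes of fructose and polyol metabolism passed the test in any of the fits run, and none of the 4 had an unadjusted p below 0.05. Khk, ketohexokinase, which commits fructose to breakdown in the proximal tubule, was at 840, 731 and 841 CPM in db/m and 839, 1032 and 870 CPM in db/db (log2 fold change 0.18, SE 0.11, adjusted p = 0.271). Tkfc, the triokinase that follows, was at 333 to 365 CPM in db/m and 359 to 378 CPM in db/db (log2 fold change 0.06, SE 0.08). Sord, sorbitol dehydrogenase, which turns sorbitol into fructose, was at 1337 to 1857 CPM in db/m and 1477 to 1646 CPM in db/db (log2 fold change 0.00, SE 0.14). For each of these 3 genes the groups overlapped.

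Akr1b3, aldose reductase, which makes sorbitol from glucose, varied more within the groups than between them. It was at 72.2, 112 and 471 CPM in db/m and 69.8, 64.8 and 260 CPM in db/db (log2 fold change -0.73, SE 0.80, adjusted p = 0.533). The replicates numbered 3 stood apart in both groups. Hk2, the insulin-responsive hexokinase, did the same at a low level, with 0.800, 0.759 and 3.51 CPM in db/m and 0.442, 0.396 and 4.60 CPM in db/db (log2 fold change 0.11, SE 1.02, adjusted p = 0.947). These libraries were also the highest of their groups in the sums of inner medulla and osmolyte genes and of adipocyte genes. The same held near the floor for skeletal muscle genes, at 0.981, 1.01 and 1.09 CPM in db/m and 0.562, 0.436 and 0.986 CPM in db/db. The sum of 7 inner medulla and osmolyte genes, a list added after these values were seen, was 383, 708 and 1081 CPM in db/m and 309, 130 and 478 CPM in db/db, which is the order of Akr1b3 within each group. The sum of 4 adipocyte genes was 4.58, 2.13 and 54.1 CPM in db/m and 2.85, 0.158 and 113 CPM in db/db, with Lep at 0 in db/db replicates 2 and 3 and Cfd at 0 in db/db replicate 2. The part of these tissues in Akr1b3 and Hk2 was not tested. Without both replicates numbered 3, a fit chosen after the data were seen, 5 genes rose (Ldha, Ldhd, Taldo1, Pdk3 and Mpc1) and 2 fell (Fbp2 and Pdk1) of the 51.

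**Figure D4:**
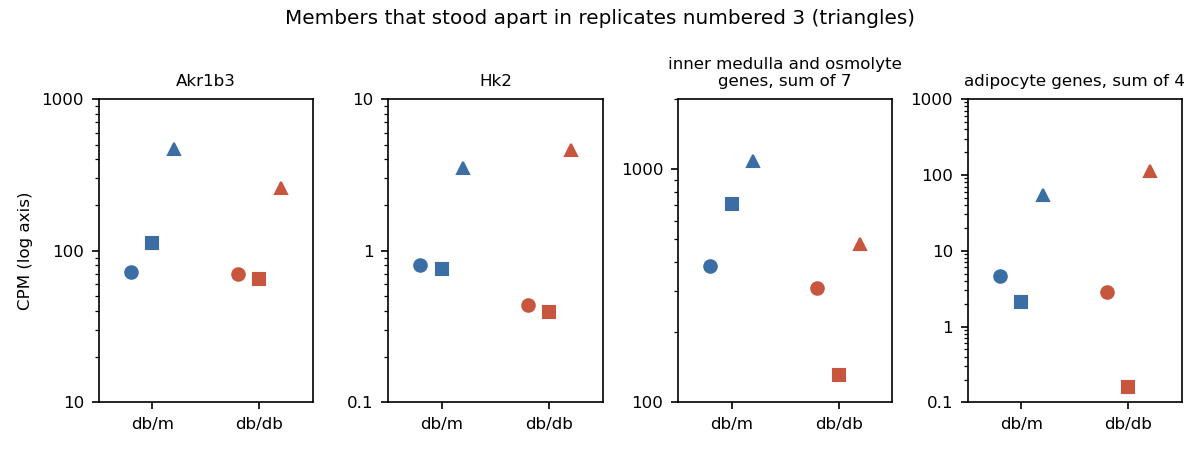
CPM on log axes in each library for Akr1b3, Hk2, the summed inner medulla and osmolyte genes and the summed adipocyte genes. The triangles, which are the replicates numbered 3, are the highest of their group in each panel, with 471 and 260 CPM for Akr1b3.

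In the pentose phosphate pathway, which supplies NADPH and ribose, 2 of 7 genes rose and 0 fell (0 with DESeq2 as well, and 0 lower at an unadjusted p below 0.05). Taldo1, transaldolase, was at 225, 225 and 251 CPM in db/m and 315, 326 and 322 CPM in db/db (log2 fold change 0.46, SE 0.08, adjusted p = 0.00788). Pgd, the second NADPH-producing dehydrogenase, was at 129, 119 and 122 CPM in db/m and 154, 145 and 144 CPM in db/db (log2 fold change 0.26, SE 0.07, adjusted p = 0.0414). Groups were separate for both. The Pgd call ended on leaving out any library but db/m replicate 1 (adjusted p = 0.0803 to 0.135), without the filter on low counts (adjusted p = 0.0662), with upper quartile scaling (adjusted p = 0.0706) and with total counts only, where the log2 fold change was 0.00 (adjusted p = 0.981). Taldo1 also lost its call with total counts only (adjusted p = 0.112).

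G6pdx, the entry enzyme of the pathway, overlapped between the groups, at 26.5 to 37.2 CPM in db/m and 27.9 to 37.5 CPM in db/db (log2 fold change 0.01, SE 0.17). Tkt, transketolase, was at 324, 236 and 241 CPM in db/m and 227, 229 and 232 CPM in db/db, separate by a narrow margin and not called (log2 fold change -0.22, SE 0.13, adjusted p = 0.254). Pgls, Rpia and Rpe, the lactonase, isomerase and epimerase between these steps, had log2 fold changes of 0.23, -0.16 and 0.15 with overlapping groups. With total counts only, Tkt and Rpia were called lower, at -0.48 (adjusted p = 0.0196) and -0.42 (adjusted p = 0.0406).

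Ratios of 2 enzymes within a library were compared for 16 pairs, since they do not depend on scaling. The groups did not overlap for 7 of the 16 pairs, while 44.6% of all genes tested, taken singly, did not overlap. Each of these pairs holds a gene that was called on its own, and the share among other pairs of genes was not computed. With 3 libraries a group, an exact two-sided permutation test cannot go below p = 0.1, which each of these 7 reached, and adjusted over the 16 pairs it was 0.229, so none passed. The ratio of the fructose-phosphorylating Khk to Hk1 was 6.83, 3.80 and 4.65 in db/m and 8.42, 14.2 and 9.42 in db/db. That of the gluconeogenic Fbp1 to the opposing Pfkl was 13.8, 8.64 and 9.43 in db/m and 15.8, 18.7 and 15.4 in db/db. Pfkm to Pfkl was 0.480 to 0.608 in db/m and 0.695 to 0.797 in db/db, and the remaining separate pairs were Ldha to Ldhb, Mpc1 to Mpc2, Aldoc to Aldoa and Eno2 to Eno1. Pck1 to Pck2, G6pc to G6pdx, Akr1b3 to Sord and Pdk4 to Pdk2 were among the 9 pairs that overlapped.

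**Figure D5:**
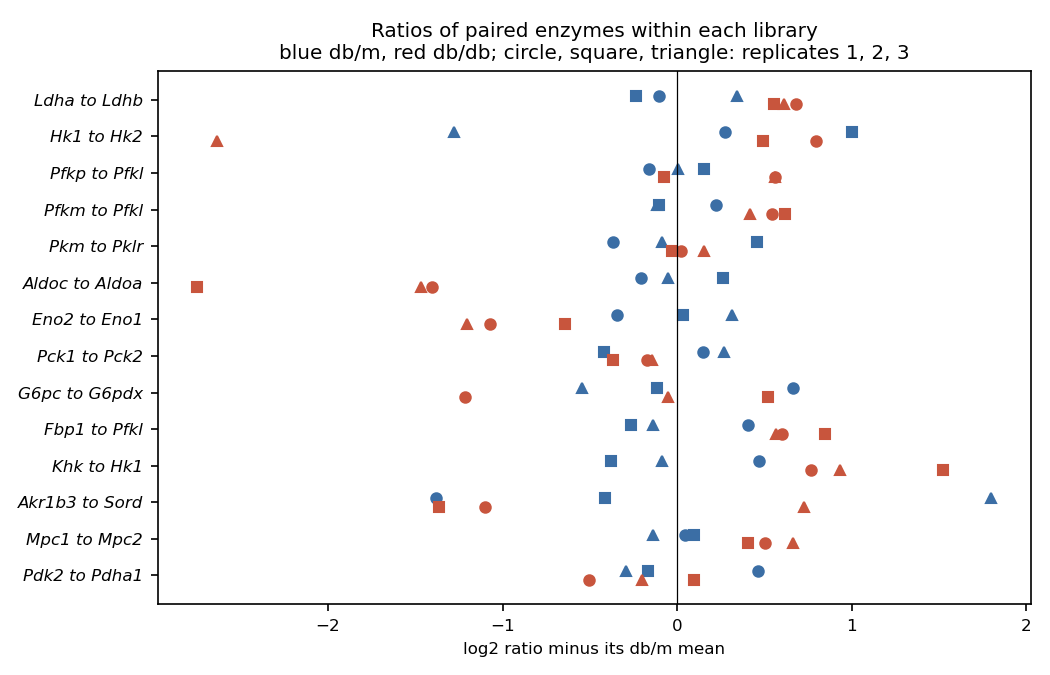
Log2 ratio of the counts of 2 enzymes in each library, less the db/m mean of that pair (x axis), for the 14 pairs in which both genes are among the 51. The groups do not overlap for 7 pairs, and Khk to Hk1 differs by 1.07 and Aldoc to Aldoa by -1.87 between the group means.

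Other genes of the same pathways were taken from further lists, and 84 of their 89 symbols had counts to look up. Of 33 other enzymes tested, 3 rose and 3 fell (18.2% called, beside 24% of all genes tested). The rises were Pgam2, the muscle phosphoglycerate mutase (log2 fold change 1.496, SE 0.26), Bpgm, which makes 2,3-bisphosphoglycerate (0.53, SE 0.09), and Pgm1, phosphoglucomutase (0.50, SE 0.08). The falls were Pdp2, the galactose mutarotase Galm (-0.55, SE 0.13) and the ribose phosphate kinase Prps2 (-0.39, SE 0.11).

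Of 23 regulators tested, 2 rose and 4 fell (26.1% called, beside 24% of all genes tested). Mlx, the partner of ChREBP, had 0.64 (SE 0.09, adjusted p = 0.00336). The coactivator Ppargc1a had -0.77 (SE 0.13, adjusted p = 0.00766), Creb1 -0.60 (SE 0.13), the hypoxia factor Hif1a -0.59 (SE 0.17) and the glucocorticoid receptor gene Nr3c1 -0.45 (SE 0.12). Mlxipl, which encodes ChREBP, had -0.17 (SE 0.19, adjusted p = 0.53).

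Of 12 transporters at the borders of these pathways, 7 fell and 1 rose (66.7% called, beside 24% of all genes tested). Those that fell included the glucose transporters Slc2a1 (-0.74, SE 0.20, adjusted p = 0.0337) and Slc2a2 (-0.37, SE 0.09). The fructose transporter Slc2a5 (-0.53, SE 0.10) and the sodium-coupled sugar transporter Slc5a10 (-0.80, SE 0.11) fell as well. The monocarboxylate carriers Slc16a1 (-0.84, SE 0.15) and Slc16a7 (-0.92, SE 0.23) also fell, and the sodium-coupled lactate transporter Slc5a8 rose (0.89, SE 0.11). Slc5a12, the other sodium-coupled lactate transporter of the list, fell (-0.60, SE 0.17, adjusted p = 0.0399). Slc5a8 is also among the S3 markers and Slc5a12 among those of S1 and S2. Of 10 glycogen genes, Phkb (0.53, SE 0.10), a subunit of phosphorylase kinase, rose. Gyg, glycogenin, lay at the threshold (0.37, SE 0.11, adjusted p = 0.049995), while none fell (0 of the 10 by this test). Called glycogen genes were 20% of the list, beside 24% of all genes tested.

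Some members share their place with another gene. In RefSeq GRCm38.p6, 19 of the 51 overlap another gene of the table, 8 of them called. Whether the counting used strand is not given in the sources used here, so reads of overlapping genes may not be separable. For all 8 of the called ones the partner was less abundant than the member in both groups. For example, Znrf1, which overlaps Ldhd, was at 54.1 CPM in db/db and 43.1 CPM in db/m (log2 fold change 0.33), and 4930506C21Rik, which overlaps Mpc1, at 1.54 and 1.44 CPM. Hcn3, which overlaps Pklr, was at 0.926 and 2.57 CPM, and Lrfn4, which overlaps Pcx, at 4.27 CPM in db/db with a log2 fold change of -0.49.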

How the data were processed

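Per the labels' protocols, poly(A) RNA was captured with oligo(dT) and sequenced as stranded libraries. The submitters' processing notes list HISAT2, StringTie, SAMtools, fastp, FastQC and DESeq2; genome build, annotation and counting are not given there. The authors deposited raw counts for each symbol, with no scaling. All 6 columns were matched to libraries by name, and no 2 libraries of a group agreed within counting error (chi-square over its degrees of freedom, 15.9 to 59.5).

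Counts were filtered with filterByExpr, scaled with TMM factors (0.901 to 1.122) and compared with glmQLFit and glmQLFTest (edgeR 4.0.16, R 4.3.3), without covariates, with Benjamini-Hochberg adjustment over all genes and a threshold of 0.05. The SE is the log2 fold change divided by the square root of F. Levels per kb divide mean CPM by the longest protein-coding transcript of the gene in GENCODE vM21, which may not be the authors' annotation, and are coarse. Ratios had a count of 0.5 added. Members and lists were chosen with earlier results of these data known. Every member was to be reported, with values in each library for those called, not overlapping or lowest in p of their sub-pathway. Pdk4, Mlxipl, Slc2a1, Slc5a12 and the values by library of Pck1, G6pc, Hk2 and Pfkp fall outside this rule and were chosen after they were seen. Of the other lists, called genes were named, at most 6 by smallest p. The marker lists for podocytes, endothelium, leukocytes, muscle, red cells and adrenal gland appear under other observations. Alternatives were other scalings, DESeq2 1.42.0, limma-voom (limma 3.58.1), other filters, mitochondrial genes left out, the replicate block and each library left out. Some results are not reported here.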

Additional observations from a re-analysis of the deposited data

How the results depend on the processing

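Of the 51 members, Ldhd, Fbp2, Pdk1, Pdk3 and Mpc1 kept their call and direction in all 16 alternative fits. DESeq2 size factors, limma-voom, the stricter filter and leaving out mitochondrial genes changed no call of a member that they tested. With total counts only, 1072 genes rose and 4883 fell, and 4 members rose; Gpi1 turned from 0.02 to -0.24. With the replicate block, 1313 genes rose and 973 fell, and 6 members rose and 6 fell. Same-numbered libraries had correlations of deviations of -0.15, 0.06 and 0.14, and not every library correlated best with its own number. These values do not show a pairing by number, but deviations from the mean of 3 libraries are too constrained to settle whether one exists. The block leaves 2 residual degrees of freedom. On leaving out 1 library, genes that rose numbered 1374 to 2011 and genes that fell 851 to 1523, members that rose 6 to 9 and members that fell 6 to 10. Without both replicates numbered 3, 1052 genes rose and 660 fell, and 5 members rose and 2 fell. In these fits fewer libraries were tested, and the causes of other changes were not tested. Depth limits Eno2, Hk2 and Pfkfb1, which had 126 counts or fewer in every library.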

Other observations

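Other marker lists are given as sums over the list in each group. Podocyte markers (4 genes) stood at 261 to 313 CPM in db/m and 191 to 254 CPM in db/db, and endothelial markers (4 genes) at 104 to 185 and 167 to 190 CPM. Leukocyte markers (5 genes) stood at 29.7 to 59.5 and 55.0 to 83.3 CPM, and red cell genes (5 genes) at 29.5 to 144 and 37.6 to 280 CPM. Skeletal muscle markers (4 genes), which bear on the muscle-type Fbp2 and Pgam2, were at 0.981 to 1.09 CPM in db/m and 0.436 to 0.986 CPM in db/db. Adrenal markers (4 genes) were at 6.38 to 15.1 and 3.61 to 4.34 CPM, with Cyp11b1 and Cyp21a1 at 0 counts in every library.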
